A study of Homo sapiens with 4 samples.

Results

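The genes examined here were 34 human genes of DNA repair and of the checkpoints that respond to damaged DNA. They were chosen by name, as the rows of the deposited expression table that carry these gene names. The choice was made with earlier results of these data known. All 34 were found among the 28412 genes of the table. By role, 13 act in homologous recombination, 10 in the Fanconi pathway, 4 in mismatch or excision repair, 2 in end joining and 5 in the checkpoint. The question was how the transcripts of each repair route stood in cells depleted of LDB1, the adaptor protein of a transcription complex that holds LMO2 and, in erythroid cells, GATA1 and TAL1.

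RNA was sequenced from human leukemia cells labelled NB4, which is a line of promyelocytes. The sh-NC group (2 libraries) carried a control vector and was labelled as untreated with a control genotype, and the sh-LDB1 group (2 libraries) carried an shRNA directed at LDB1. The study's methods describe lentiviral vectors and selection of infected cells with puromycin, and the labels give no further agent, dose or time. The study described 3 such shRNAs, and which one was sequenced was not given in the sources used here. Neither was it given whether the replicates were separate cultures, so the p-values measure the spread between these samples, which may be technical.

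The levels are FPKM, the fragments per kilobase of gene over a divisor of each library, and were built on 14497208 to 16789648 recovered reads per library. The divisor that the values imply was 0.964 and 0.958 of the recovered reads in sh-NC, and 1.038 and 1.044 of them in sh-LDB1. The scaling was thus not by recovered reads alone. It set sh-LDB1 levels lower relative to sh-NC than recovered reads alone would. LDB1 itself stood at 135.1 and 120.1 FPKM in the controls and at 10.2 and 9.47 FPKM in sh-LDB1, 7.73% of the control level (log2 fold change -3.56, SE 0.0765, adjusted p = 6.93e-05 by limma). The labelled cell type was checked against marker genes. The defining granule genes MPO and CTSG of promyelocytes were not analysed here, and ELANE was listed at 0 in 3 of the 4 libraries and at 0.182 FPKM in 1 of the sh-LDB1 libraries. The 8 promyelocyte and granulocyte markers of the table summed to 12.7 and 11.8 FPKM in the controls, and to 41.5 and 37.9 FPKM in sh-LDB1. The 14 erythroid markers summed to 4002.5 and 4167.3 FPKM in sh-NC and to 388.5 and 352.4 FPKM in sh-LDB1, so the marker levels went against the label of a promyelocytic line, and the libraries are called here by their vectors.

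Cells mend broken or mispaired DNA by several routes. Homologous recombination copies the missing sequence from the sister chromatid, with BRCA1 preparing the broken end and BRCA2 acting at the later step of strand invasion. The Fanconi pathway opens crosslinks between the strands, and its core complex attaches ubiquitin to the FANCD2 and FANCI pair. Mismatch repair corrects copying errors, excision repair removes damaged bases, and end joining seals breaks without a template. The kinases ATM and ATR sense the damage and pass the signal to CHEK2 and CHEK1, which hold the cell cycle. Many of these genes are most active while DNA is copied, and E2F factors are known to drive a share of them at that time.

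Results showed that most of the repair transcripts were lower after the loss of LDB1, and that none rose past the fold threshold, by limma or by voom on the recovered reads. A gene was said to have fallen or risen at a Benjamini-Hochberg adjusted p-value below 0.05 in the limma fit over all 13300 tested genes, and to have passed the fold threshold where its fold was also below 0.5 or above 2 on the log2(FPKM + 1) scale. Of the 34 genes, 33 reached a mean of 1 FPKM and were tested. Of these, 28 fell, 1 (ATM) rose and 4 (PALB2, FANCC, FANCF and ATR) did not pass the test. Over all tested genes, 37.4% fell and 29.9% rose. The fold threshold was passed by 16 of the 33 repair genes, all downward, against 10.3% of all tested genes downward and 9.5% upward. The median log2 fold change was -0.99 over the 33 genes, with a range of -1.95 to 0.55, and -0.08 over all tested genes. With each library scaled to the same summed FPKM, 14 repair genes passed the fold threshold downward and 0 upward, while the split over all tested genes went from 1371 lower and 1264 higher to 995 lower and 1628 higher.

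The control and sh-LDB1 values did not overlap for 31 of the 33 tested genes, the exceptions being FANCC and FANCF. With 2 libraries per group this is a weak criterion, since 84.6% of all tested genes met it. The sh-LDB1 libraries were the lower ones for 30 of the 33, against 46.3% of all tested genes. Summed over the 34 genes, the level was 685.9 and 707.2 FPKM in the controls and 363.9 and 357.3 FPKM in sh-LDB1, so 51.8% of the control level was left. The sum was dominated by 3 abundant genes, XRCC6, PARP1 and XRCC5, which held 139.3 ± 6.42, 107.0 ± 3.36 and 67.1 ± 2.99 FPKM (SD, n = 2) in sh-NC. Gene by gene, the sh-LDB1 level had a median of 41.9% of control and ran from 23.3% for EXO1 to 164.8% for ATM. The plot of the level of each gene by library shows the 2 replicates of a group lying close together for nearly every gene.

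**Figure D1:**
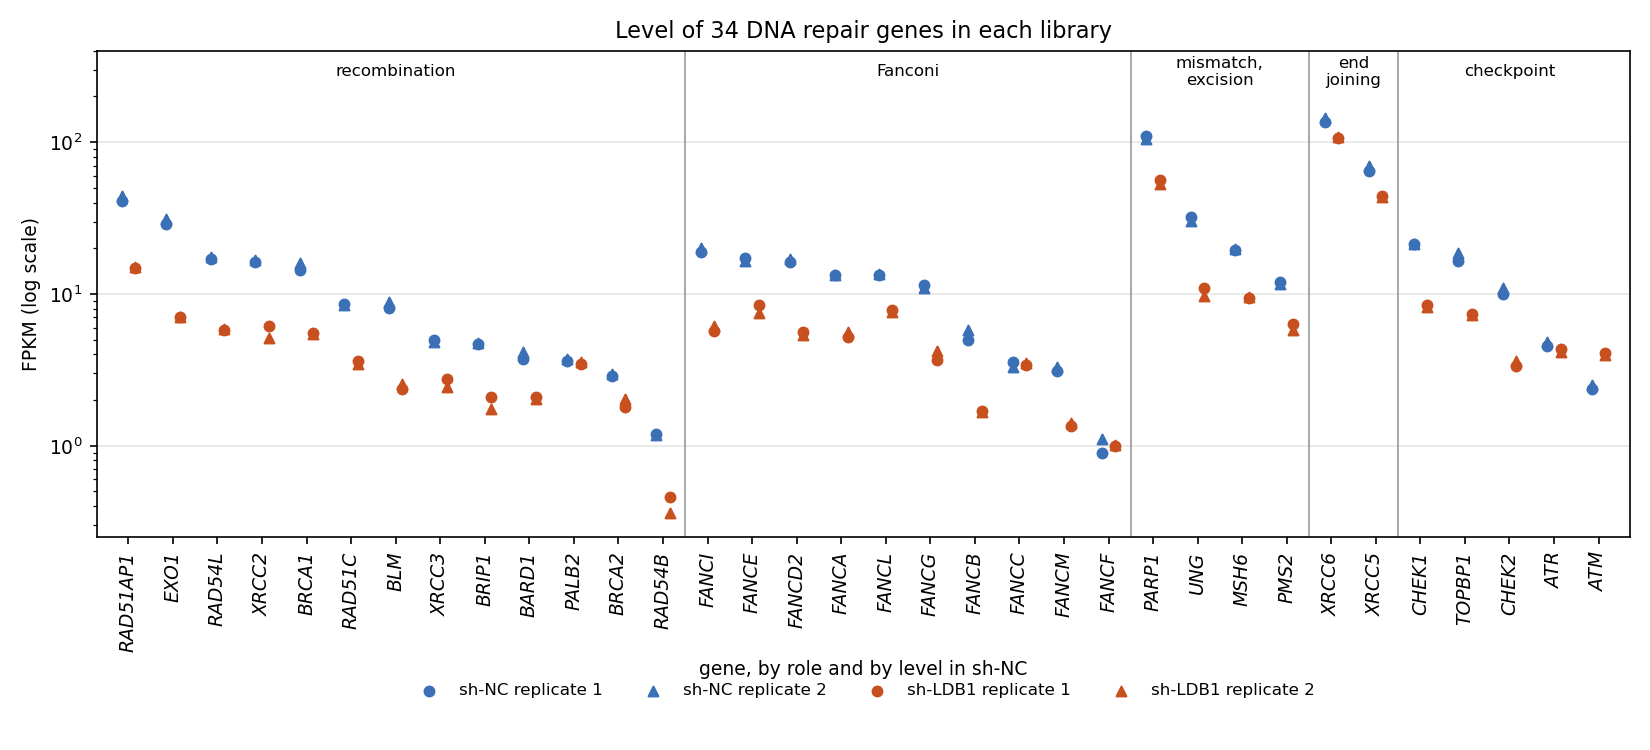
FPKM on a log axis for each of the 34 repair genes in the 4 libraries, grouped by role and ordered within a role by the sh-NC level, with sh-NC in blue, sh-LDB1 in orange, replicate 1 as circles and replicate 2 as triangles. The orange points lie below the blue ones for most genes, lie among them for FANCC and FANCF, and lie above them for ATM, at 4.08 and 3.95 against 2.36 and 2.51 FPKM.

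In bulk RNA, a smaller share of cycling cells and less transcript per cell cannot be told apart. In separate assays, the study reported lower proliferation after LDB1 knockdown, and arrest in G0/G1 in NB4 and Kasumi-1 cells. A list of 24 proliferation genes, among them the replicative helicase genes MCM2 to MCM7 and the mitotic genes TOP2A and CDK1, moved with the repair genes. All 24 fell and 20 passed the fold threshold, with a median log2 fold change of -1.26. Their summed level was 1509.5 and 1529.0 FPKM in the controls and 548.8 and 550.8 FPKM in sh-LDB1, 36.2% of control. All 13 tested erythroid markers also passed the fold threshold downward. The part that either change had in the repair genes was not tested.

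The promoters of the repair genes were examined next, since the sequence at the start of a gene was not used to choose them. RefSeq (GRCh38.p14) gave a window of 300 bases, from 250 before to 50 after the annotated start, for 31 of the 34 genes, with no entry for RAD54B, FANCI and XRCC5. Each window was searched on both strands for the E2F core (TTCCCGC or TTGGCGC), the CHR element (TTTGAA or TTCGAA), the CCAAT box (CCAAT) and the GATA motif (AGATAA or TGATAA). 6 windows are printed here 5′ to 3′ on the strand of the gene, with each E2F core match in capitals. RAD51AP1, BLM, FANCD2 and UNG are shown as genes with a match that passed the fold threshold. EXO1 is shown as the gene with the largest fall and no match to either E2F core word, and ATM as the gene that rose, also with no match. The windows lie at chr12:4538640-4538939 for RAD51AP1, chr15:90717096-90717395 for BLM, chr3:10026187-10026486 for FANCD2, chr12:109097347-109097646 for UNG, chr1:241847954-241848253 for EXO1 and chr11:108222817-108223116 for ATM, all on the plus strand.
RAD51AP1: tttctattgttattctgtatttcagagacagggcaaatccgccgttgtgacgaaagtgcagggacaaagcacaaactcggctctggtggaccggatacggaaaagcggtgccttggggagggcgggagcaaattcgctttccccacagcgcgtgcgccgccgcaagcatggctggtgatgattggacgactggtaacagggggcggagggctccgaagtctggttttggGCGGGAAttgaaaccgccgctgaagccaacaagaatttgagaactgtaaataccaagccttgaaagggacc
BLM: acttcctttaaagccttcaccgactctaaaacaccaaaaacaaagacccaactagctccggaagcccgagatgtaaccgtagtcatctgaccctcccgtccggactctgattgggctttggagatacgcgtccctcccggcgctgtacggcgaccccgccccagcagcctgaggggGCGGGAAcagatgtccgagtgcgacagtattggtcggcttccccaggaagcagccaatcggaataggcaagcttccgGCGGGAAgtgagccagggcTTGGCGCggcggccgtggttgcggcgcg
FANCD2: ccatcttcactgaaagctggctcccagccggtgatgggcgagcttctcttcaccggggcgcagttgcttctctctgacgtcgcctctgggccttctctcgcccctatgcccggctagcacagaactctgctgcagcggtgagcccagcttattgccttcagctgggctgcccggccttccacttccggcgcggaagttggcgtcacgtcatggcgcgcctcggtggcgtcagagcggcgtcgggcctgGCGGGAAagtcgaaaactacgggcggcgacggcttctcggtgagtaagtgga
UNG: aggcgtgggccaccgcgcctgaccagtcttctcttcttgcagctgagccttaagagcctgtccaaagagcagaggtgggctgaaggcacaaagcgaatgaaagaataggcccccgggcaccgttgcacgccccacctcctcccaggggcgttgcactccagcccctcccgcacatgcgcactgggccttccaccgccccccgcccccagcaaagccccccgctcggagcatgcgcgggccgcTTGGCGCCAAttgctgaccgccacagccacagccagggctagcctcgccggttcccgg
EXO1: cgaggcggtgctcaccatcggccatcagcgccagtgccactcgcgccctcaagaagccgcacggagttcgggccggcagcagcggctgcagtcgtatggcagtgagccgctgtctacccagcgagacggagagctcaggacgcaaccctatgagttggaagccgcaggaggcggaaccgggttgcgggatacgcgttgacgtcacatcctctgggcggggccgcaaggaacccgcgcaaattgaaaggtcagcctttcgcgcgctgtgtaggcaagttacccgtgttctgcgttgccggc
ATM: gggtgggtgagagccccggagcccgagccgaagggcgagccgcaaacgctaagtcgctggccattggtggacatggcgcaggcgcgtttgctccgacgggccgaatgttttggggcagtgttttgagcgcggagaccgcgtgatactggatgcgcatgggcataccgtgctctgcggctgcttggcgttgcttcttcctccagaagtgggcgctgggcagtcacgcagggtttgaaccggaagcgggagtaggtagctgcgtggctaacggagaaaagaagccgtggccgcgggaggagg

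An E2F core match was present in 18 of the 31 windows (58.1%). The share was 9.33% over all 27305 RefSeq windows and 15.5% over the 8398 windows of genes tested here. It was 28.0% over 157 other repair genes and 47.6% over 21 proliferation genes. Of the repair roles, recombination had a match in 7 of 12 windows and Fanconi in 6 of 9. The matches lay close to the start, with their first base between positions -99 and 42 relative to it, and BLM held 3 of the 21 matches. In UNG the sequence reads as a match on both strands, so its 2 matches overlap each other, and they also overlap a CCAAT box. A match is a likeness of letters and not a measured binding site. Only exact copies of the 2 E2F core words were counted. The EXO1 window holds ttcgcgc, which differs from each of the 2 words by a single base and was not counted. A window without a match may thus hold another form of E2F site, and the groups with and without a match rest on these 2 words only.

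The other motifs gave other shares. The CCAAT box was found in 51.6% of the repair windows, against 37.3% of the windows of tested genes, 35.7% of all windows and 85.7% of proliferation windows. The CHR element was found in 9.68%, against 11% of the windows of tested genes, 16.6% of all windows and 33.3% of proliferation windows. The GATA motif was found in a single repair window, that of FANCM (3.23%), against 16.6% of all windows and 7.63% of the windows of tested genes. Within the repair genes, fold changes with and without an E2F core match overlapped widely. The 18 genes with a match had a median log2 fold change of -1.07 (range -1.5 to 0.01) and the 13 tested genes without one -0.86 (range -1.95 to 0.55), and a match was present in 9 of the 15 genes past the fold threshold and in 9 of the 16 others.

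**Figure D2:**
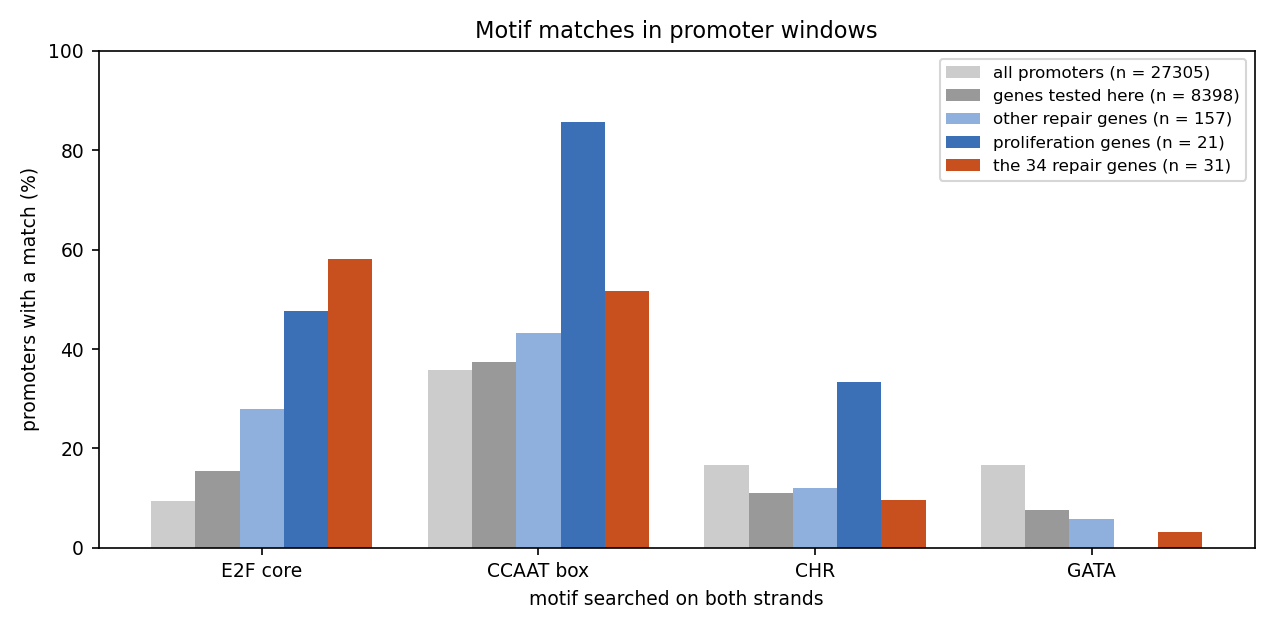
Percent of promoter windows (250 bases before to 50 after the RefSeq start) with at least 1 match to each of 4 motifs on either strand, for all promoters, the promoters of tested genes, other repair genes, proliferation genes and the 34 repair genes, of which 31 had a window. For the E2F core the bar of the repair genes stands at 58.1% and that of all promoters at 9.33%, whereas for the CHR and GATA motifs the repair genes stand at 9.68% and 3.23%, against 16.6% of all promoters and 11% and 7.63% of the promoters of tested genes.

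Among the recombination genes, 11 of the 12 tested fell and 7 passed the fold threshold, with a median log2 fold change of -1.19. Their summed level was 155.4 and 164.8 FPKM in the controls and 57.9 and 56.7 FPKM in sh-LDB1, 35.8% of control. EXO1, the exonuclease that cuts back one strand from a break or a mismatch (ENSG00000174371, chr1:241847967-241895148, plus strand), had the largest fall of the 33 tested genes. It stood at 29.1 and 31.3 FPKM in the controls and at 7.06 and 7.02 FPKM in sh-LDB1 (log2 fold change -1.95, SE 0.0554, adjusted p = 8.31e-05). Both sh-LDB1 libraries were thus near 23.3% of the control mean and far from either control library.

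Genes that act in strand exchange followed. RAD51AP1, which aids strand pairing, went from 41.1 and 44.2 FPKM to 14.8 and 15.1 FPKM (log2 fold change -1.45, SE 0.0533, adjusted p = 0.000117). RAD54L, a motor protein that drives strand exchange, went from 17.0 and 17.6 FPKM to 5.81 and 5.84 FPKM (log2 fold change -1.42, SE 0.0496, adjusted p = 0.000113). For both genes the replicates of a group lay within a few FPKM and the groups were well separated. However, in GENCODE 44, 813 of the 4078 exonic bases of RAD54L overlap LRRC41 on the opposite strand. LRRC41 was listed at 11.9 and 12.1 FPKM in the controls and at 13.1 and 14.5 FPKM in sh-LDB1. XRCC2 and RAD51C, which also act in strand exchange, passed the fold threshold. XRCC2 went from 16.2 and 16.8 FPKM to 6.15 and 5.15 FPKM (log2 fold change -1.40, SE 0.089, adjusted p = 0.000346), and RAD51C from 8.56 and 8.40 FPKM to 3.64 and 3.47 FPKM (log2 fold change -1.06, SE 0.0592, adjusted p = 0.000253). RAD51C lay close to the threshold and did not pass it with the libraries scaled to equal sums (-0.91) or by the median of ratios (-0.97).

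BLM, the helicase that resolves joined recombination intermediates and is lost in Bloom syndrome, went from 8.03 and 8.90 FPKM to 2.36 and 2.55 FPKM (log2 fold change -1.45, SE 0.0794, adjusted p = 0.000239). BRCA1, the ubiquitin ligase at the head of the route, went from 14.4 and 16.1 FPKM to 5.49 and 5.42 FPKM (log2 fold change -1.33, SE 0.0707, adjusted p = 0.000224). Its partners had smaller fitted falls. BARD1, the obligate partner of BRCA1 in the ligase, fell by 0.69 on the log2 scale, BRIP1, the helicase bound to BRCA1, by 0.97, and BRCA2 by 0.42. BRIP1 passed the fold threshold with pseudocounts of 0.1 (-1.26) and 0.01 (-1.3), with voom (-1.3) and without sh-LDB1 replicate 1 (-1.05). BRCA2 no longer passed the test without sh-NC replicate 1 (adjusted p = 0.0524), sh-NC replicate 2 (adjusted p = 0.0641) or sh-LDB1 replicate 1 (adjusted p = 0.0742) in limma. PALB2, which bridges BRCA1 and BRCA2, stood at 3.59 and 3.74 FPKM in the controls and at 3.43 and 3.54 FPKM in sh-LDB1 (log2 fold change -0.06, SE 0.0697, adjusted p = 0.499). Its fold change was 0.08 with the libraries scaled to equal sums and 0.02 by the median of ratios. The ratio of BRCA1 to BARD1 was 3.88 and 3.89 in the controls and 2.63 and 2.69 in sh-LDB1, and that of PALB2 to BRCA2 was 1.26 and 1.26 in the controls and 1.90 and 1.74 in sh-LDB1, so within both pairs the ratios of the groups did not overlap. With 2 libraries per group, such separation is a weak criterion.

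XRCC3, which forms a complex with RAD51C, fell by 0.71 on the log2 scale (adjusted p = 0.00173), but 5756 of its 7507 exonic bases overlap KLC1 on the opposite strand. KLC1 was listed at 3.03 and 2.81 FPKM in the controls and 2.82 and 2.91 FPKM in sh-LDB1, and since strand use was not stated the reads of the 2 genes cannot be told apart. RAD54B, a relative of RAD54L, was below the filter and not tested, with 103, 92, 39 and 29 recovered reads in sh-NC 1, sh-NC 2, sh-LDB1 1 and sh-LDB1 2. That corresponded to 1.20 and 1.17 FPKM in the controls and 0.458 and 0.361 FPKM in sh-LDB1. It shares 3511 of its 5319 exonic bases with FSBP on the same strand. In the plot of fold changes by role, the recombination genes spread from EXO1 to PALB2.

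**Figure D3:**
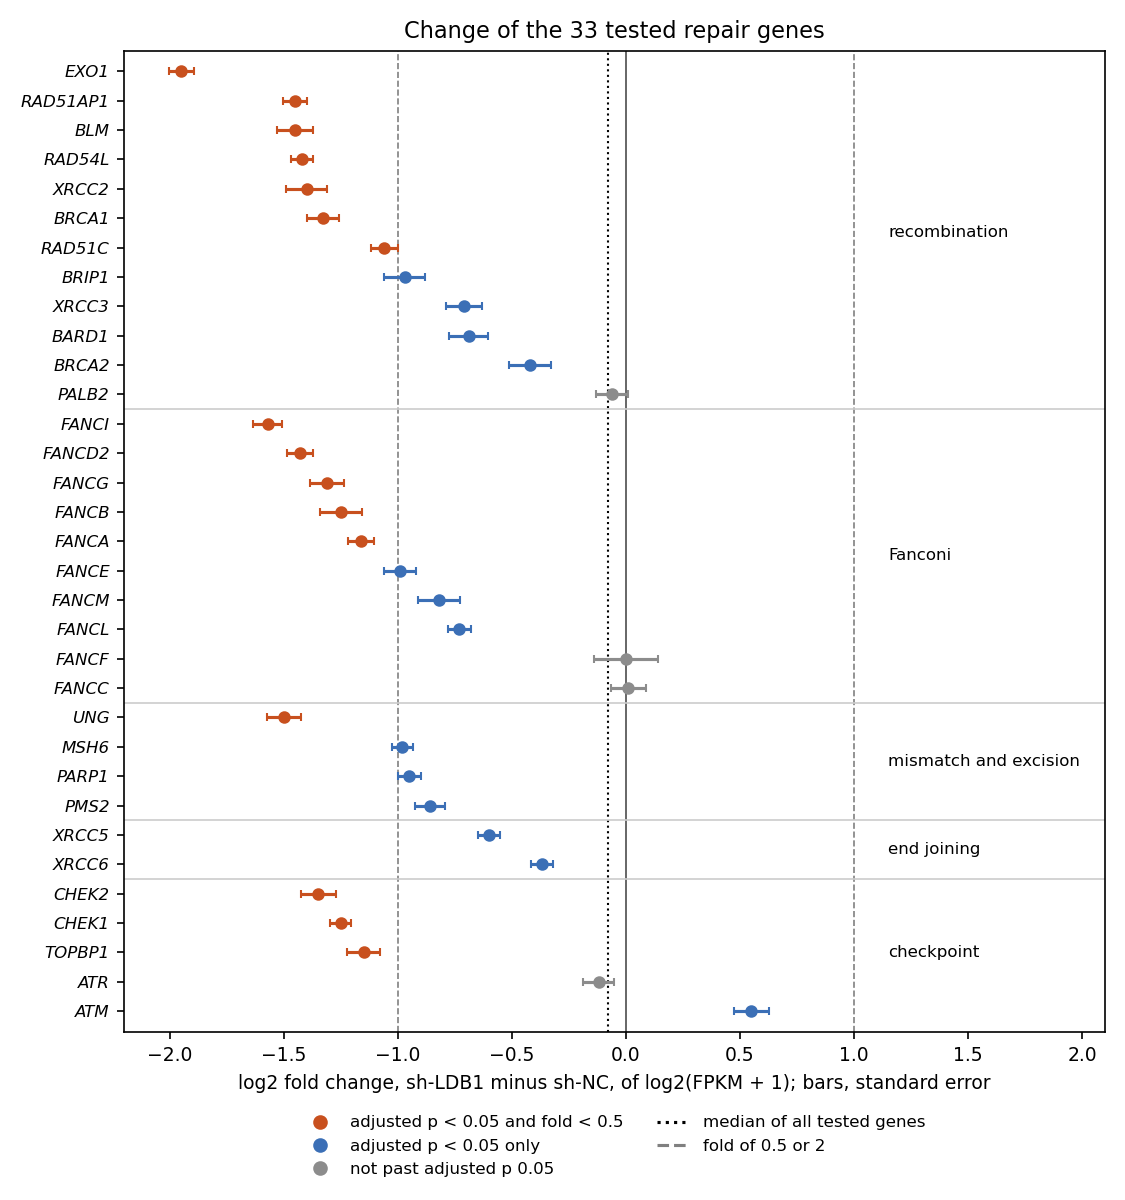
Log2 fold change (sh-LDB1 minus sh-NC, of log2(FPKM + 1)) of the 33 tested repair genes by role, with bars of 1 standard error. Orange marks genes past both thresholds (adjusted p-value and fold), blue those with an adjusted p-value below 0.05 only, and grey those not past it. The genes spread from EXO1 at -1.95 to ATM at 0.55, and each role except end joining holds at least 1 gene left of the line at a fold of 0.5.

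In the Fanconi pathway, 8 of 10 genes fell and 5 passed the fold threshold, with a median log2 fold change of -1.08 and a summed level at 42.3% of control (103.1 and 105.0 FPKM against 44 and 44.1 FPKM). The substrate pair had the largest fitted falls with the pseudocount of 1, although FANCB was below FANCD2 with pseudocounts of 0.1 (-1.62 and -1.57) and 0.01 (-1.67 and -1.59) and stood at 31.2% of control against 33.2%. FANCI (ENSG00000140525, chr15:89243945-89317261, plus strand) went from 19.0 and 20.2 FPKM to 5.72 and 6.18 FPKM (log2 fold change -1.57, SE 0.0635, adjusted p = 0.000137). FANCD2 went from 16.2 and 16.9 FPKM to 5.65 and 5.37 FPKM (log2 fold change -1.43, SE 0.0558, adjusted p = 0.000128). Both partners thus moved by similar amounts, and the ratio of FANCD2 to FANCI was 0.854 and 0.837 in the controls and 0.988 and 0.869 in sh-LDB1.

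The subunits of the core complex that modifies this pair had unequal fold changes. FANCG, a scaffold subunit, went from 11.4 and 11 FPKM to 3.70 and 4.19 FPKM (log2 fold change -1.31, SE 0.0733, adjusted p = 0.000253). FANCB, the X-linked subunit that stands with the ligase, went from 5.0 and 5.76 FPKM to 1.70 and 1.66 FPKM (log2 fold change -1.25, SE 0.092, adjusted p = 0.000505), on 98 and 90 recovered reads in sh-LDB1. FANCA, the most often mutated Fanconi anemia gene, went from 13.4 and 13.4 FPKM to 5.24 and 5.63 FPKM (log2 fold change -1.16, SE 0.0573, adjusted p = 0.000192). These 3 were well separated between the groups, though 2409 of the 12316 exonic bases of FANCA overlap ZNF276 on the opposite strand. FANCE, FANCL and FANCM, which are the bridge to FANCD2, the catalytic ligase subunit and the DNA translocase that anchors the complex, fell by 0.99, 0.73 and 0.82 on the log2 scale without passing the fold threshold. FANCE and FANCM stood at 47.4% and 43.2% of control, and passed it with pseudocounts of 0.1 (-1.07 and -1.16) and 0.01 (-1.08 and -1.21) and with voom (-1.08 and -1.21). FANCE also passed it without sh-NC replicate 2 (-1.02) or sh-LDB1 replicate 1 (-1.07). For FANCL, up to 634 of the 37977 exonic bases overlap VRK2 and AC007250.1 on the opposite strand. VRK2 was listed at 9.28 and 9.12 FPKM in the controls and at 2.51 and 2.66 FPKM in sh-LDB1. Since strand use was not stated, a part of the FANCL reads may come from VRK2.

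The last 2 core subunits, FANCC and FANCF, did not pass the test. FANCC stood at 3.57 and 3.29 FPKM in the controls and at 3.41 and 3.53 FPKM in sh-LDB1 (log2 fold change 0.01, SE 0.076, adjusted p = 0.889). FANCF stood at 0.90 and 1.10 FPKM in the controls and at 0.994 and 1.01 FPKM in sh-LDB1 (log2 fold change 0.00, SE 0.142, adjusted p = 0.994). For both, the sh-LDB1 libraries lay between the control libraries. FANCF, a gene of a single coding exon, rested on 43 to 48 recovered reads per library, so a modest change would not have been detectable at this depth. FANCE and FANCC form a subcomplex with FANCF, and the ratio of FANCC to FANCE was 0.208 and 0.199 in the controls and 0.402 and 0.468 in sh-LDB1, while that of FANCF to FANCC overlapped between the groups.

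All 4 mismatch and excision genes fell, and UNG alone passed the fold threshold. UNG, the glycosylase that removes uracil from DNA (ENSG00000076248, chr12:109097597-109126725, plus strand), went from 32.2 and 30.1 FPKM to 11 and 9.76 FPKM (log2 fold change -1.5, SE 0.0756, adjusted p = 0.0002). The other 3 fell without passing the fold threshold on the log2(FPKM + 1) scale. MSH6, which recognises mismatches, fell by 0.98, PARP1, the sensor of strand breaks, by 0.95, and PMS2, an endonuclease of mismatch repair, by 0.86 on the log2 scale, and their levels were 48.3%, 51.3% and 51.3% of control. MSH6 passed the threshold with pseudocounts of 0.1 (-1.04) and 0.01 (-1.05) and with voom (-1.05). The smallest of these falls, that of PMS2, was from 12.0 and 11.7 FPKM to 6.36 and 5.78 FPKM (SE 0.0646, adjusted p = 0.000531). MSH6 shares 4288 of its 17722 exonic bases with genes on the opposite strand. PMS2 has near-identical pseudogenes that can take or give reads, and PMS2P1 was itself listed at 16.9 and 12.5 FPKM in the controls and at 7.47 and 7.21 FPKM in sh-LDB1, so its value is uncertain.

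End joining had the smallest median fold change of the 5 roles, -0.49, and a summed level at 73.2% of control. XRCC5 and XRCC6 encode the Ku heterodimer, which caps broken ends. XRCC5, the larger subunit, stood at 64.9 and 69.2 FPKM in the controls and at 44.2 and 43.3 FPKM in sh-LDB1 (log2 fold change -0.60, SE 0.0489, adjusted p = 0.000655). XRCC6, the smaller subunit, stood at 134.8 and 143.9 FPKM in the controls and at 106.9 and 107.6 FPKM in sh-LDB1 (log2 fold change -0.37, SE 0.0484, adjusted p = 0.00271). Both fell and both kept more of their level than the median repair gene, at 65.3% and 77.0% of control. The ratio of XRCC6 to XRCC5 was 2.08 in both sh-NC libraries and 2.42 and 2.48 in sh-LDB1.

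Of the 5 checkpoint genes, CHEK1, CHEK2 and TOPBP1 fell, ATM rose and ATR did not pass the test. CHEK1, the kinase that ATR activates when replication stalls, went from 21.2 and 21.4 FPKM to 8.51 and 8.26 FPKM (log2 fold change -1.25, SE 0.0465, adjusted p = 0.00012). CHEK2, the target of ATM at double-strand breaks, went from 9.93 and 11 FPKM to 3.36 and 3.63 FPKM (log2 fold change -1.35, SE 0.0768, adjusted p = 0.00026). TOPBP1, the activator of ATR, went from 16.5 and 18.6 FPKM to 7.39 and 7.26 FPKM (log2 fold change -1.15, SE 0.072, adjusted p = 0.000332). All 3 passed the fold threshold, with sh-LDB1 levels between 33.4% and 41.8% of control, although TOPBP1 did not with the libraries scaled to equal sums (-1.0).

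ATM, the kinase called to double-strand breaks (ENSG00000149311, chr11:108223044-108369102, plus strand), rose from 2.36 and 2.51 FPKM to 4.08 and 3.95 FPKM, 164.8% of control (log2 fold change 0.55, SE 0.0759, adjusted p = 0.00342). It was the only one of the 33 tested genes to rise, and it did not pass the fold threshold. ATR stood at 4.52 and 4.84 FPKM in the controls and at 4.33 and 4.14 FPKM in sh-LDB1 (log2 fold change -0.12, SE 0.0685, adjusted p = 0.192), a difference near the median of all tested genes which became 0.02 with the libraries scaled to equal sums. The ratio of ATM to ATR was 0.521 and 0.520 in the controls and 0.943 and 0.953 in sh-LDB1, so the kinases went from unequal to near equal levels per length. The ratio of CHEK1 to CHEK2 was 2.13 and 1.94 in the controls and 2.53 and 2.27 in sh-LDB1.

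To see whether other repair genes moved in the same way, a wider list of 184 genes was examined, of which 183 were in the table and 172 were tested. Of these, 118 fell and 20 rose, 43 passed the fold threshold downward and 4 upward, and the median log2 fold change was -0.52. Over all tested genes the shares were 37.4% fallen, 29.9% risen, and 10.3% and 9.5% past the fold threshold downward and upward. The medians of the 8 classes ranged from -1.07 to -0.31. Mismatch repair with its DNA synthesis factors had the lowest, with 10 of 16 genes past the fold threshold downward. Checkpoint genes had a median of -0.66 (5 of 17 downward), the other Fanconi genes -0.58 (4 of 14), and translesion and direct reversal genes -0.47 (2 of 17). Nucleotide excision had a median of -0.42 (4 of 25 downward), recombination -0.35 (12 of 39), end joining -0.35 (4 of 20) and base excision -0.31 (2 of 24). For base excision and for translesion and direct reversal, the number past the fold threshold downward was near the share over all tested genes. No test of the difference between classes was made.

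**Figure D4:**
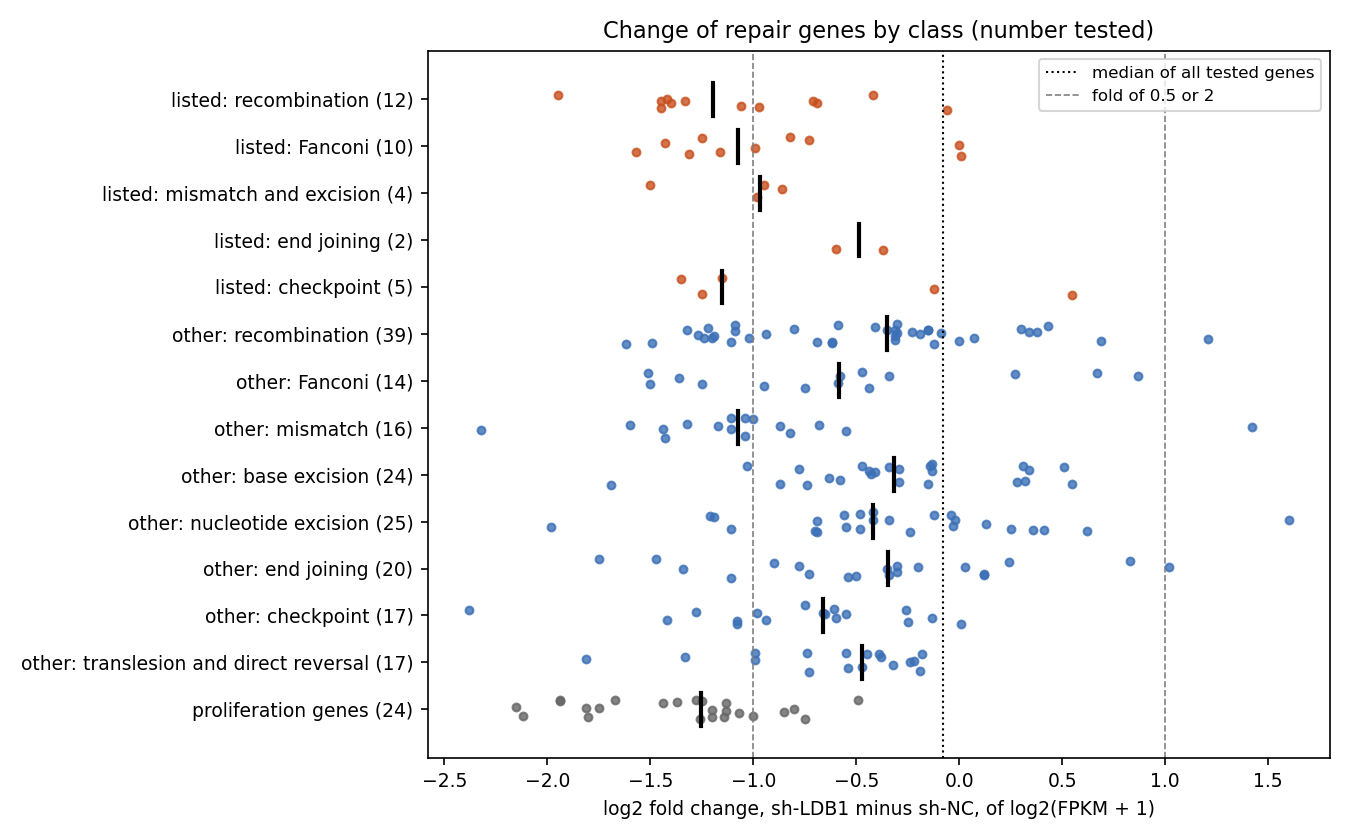
Log2 fold change (sh-LDB1 minus sh-NC, of log2(FPKM + 1)) of each tested gene in the 5 roles of the 34 repair genes (orange, named listed), in 8 classes of other repair genes (blue) and in the proliferation genes (grey), with the number tested in brackets, a black bar at the median of each class, and vertical scatter used only to separate points. The medians run from -1.26 for the proliferation genes and -1.19 for the listed recombination genes to -0.31 for other base excision genes, all left of the dotted median of all tested genes at -0.08.

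Of each class, at most the 2 genes with the largest falls past the fold threshold are named. CDC25A, the phosphatase that CHEK1 targets for destruction, went from 25.7 and 22.7 FPKM to 4.02 and 3.66 FPKM (log2 fold change -2.38). RFC3, a subunit of the clamp loader, went from 21.8 and 23.0 FPKM to 3.67 and 3.70 FPKM (log2 fold change -2.32). RPA1, the large subunit of the single-strand binding protein, went from 33.6 and 34.6 FPKM to 8.08 and 7.74 FPKM (log2 fold change -1.98). Each of these had a fitted fall at least as large as that of EXO1. DUT, which keeps uracil out of DNA, fell by 1.81 on the log2 scale, PRKDC, the kinase that Ku recruits, by 1.75, NEIL3, a glycosylase, by 1.69, RBBP8, which starts end resection, by 1.62, and POLD2, a subunit of the replicative polymerase delta, by 1.60. The falls of RFWD3 (1.51), CENPX (1.5), WRN (1.49), POLQ (1.47), CDC25C (1.42), RAD18 (1.33), GTF2H3 (1.21) and APEX1 (1.03) on the log2 scale completed the named genes of these classes, and every one had an adjusted p-value of at most 0.000405.

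4 of the wider genes passed the fold threshold upward. CETN2, a centrin that is also part of the nucleotide excision damage sensor, rose from 9.49 and 10.5 FPKM to 32.2 and 32.2 FPKM (log2 fold change 1.60, SE 0.061, adjusted p = 0.000123). POLD4, the smallest subunit of polymerase delta, rose from 3.49 and 3.22 FPKM to 10.7 and 10.6 FPKM (log2 fold change 1.42, SE 0.0617, adjusted p = 0.000152). SWI5, a cofactor of recombination, rose from 13.5 and 13.1 FPKM to 30.1 and 33.9 FPKM (log2 fold change 1.21, SE 0.0704, adjusted p = 0.000276). POLM, an end joining polymerase, rose from 2.66 and 2.34 FPKM to 5.95 and 6.19 FPKM (log2 fold change 1.02, SE 0.079, adjusted p = 0.000586). Within polymerase delta, POLD2 and POLD4 thus moved in opposite directions, each by more than the spread between its replicates. Within end joining, the polymerase POLM rose while PRKDC, XRCC5 and XRCC6 fell.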

How the data were processed

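Libraries were prepared from total RNA of 4 samples labelled NB4 with a TruSeq RNA kit, and the authors deposited 1 table of FPKM for 28412 genes. The submitters' processing notes name HISAT2 2.0.5 and hg38. Annotation, counting tool and strand use were not given in the sources used here.

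The 34 genes and all gene lists were chosen with earlier results of these data known. Levels were compared as log2(FPKM + 1), which understates the change of low genes, for the 13300 genes whose mean reached 1 FPKM. The fit was by limma 3.58.1 in R 4.3.3 (eBayes with a trend, two-sided, no replicate block, all 4 libraries), with Benjamini-Hochberg adjustment. An exact permutation test of 2 against 2 libraries cannot give a p-value below 0.333 and was not used. Reads were recovered from the FPKM through the gene length that makes a gene's values whole reads. This length was itself whole (within 0.05) for 96.0% of 10974 genes checked, where 10% would be so by chance. The limma step alone was tested on simulated counts with known changes, drawn independently for each gene and with no difference in scaling between the groups. Its outcome is not reported here. The read recovery and the promoter search were not tested in this way.

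Values per library are given, in each role, for every gene past the fold threshold, the largest fall and rise, and every gene not past the test. At most 2 falls and 2 rises past the threshold are named in each wider class. Some genes of the wider classes are not reported here by name. Coordinates, exonic bases and overlaps are from GENCODE 44 on GRCh38 and promoters from RefSeq. The gene models behind the FPKM were not given and can be shorter, so a stated overlap may lie outside the bases that were counted. Sums and figures used Python 3.11.15.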

Additional observations from a re-analysis of the deposited data

How the results depend on the processing

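The fits of the 33 tested repair genes gave 443 results with the same direction and the same side of the joint threshold of adjusted p and fold over the alternatives, 25 that crossed into it, 8 that left it and 6 that turned in sign. The count lower past the fold threshold (16) ran from 11 (limma treat) and 14 (libraries scaled to equal sums) to 20 (pseudocounts of 0.1 and 0.01, and voom on recovered reads), and a fold threshold of 1.5 gave 26. The genes that left the call under treat were RAD51C, FANCA, FANCB, FANCG and TOPBP1, and those that entered it with a lower pseudocount or voom were BRIP1, FANCE, FANCM and MSH6. Leaving out each library in turn gave 16 to 18. The count that fell at the adjusted p alone (28) was then 27 to 28, with BRCA2 lost without sh-NC replicate 1, sh-NC replicate 2 or sh-LDB1 replicate 1 (adjusted p 0.0524 to 0.0742 by limma) and 28 without sh-LDB1 replicate 2. The median of -0.99 was -1.23 and -1.25 with pseudocounts of 0.1 and 0.01, -1.25 with voom, -1.28 with a filter of 5 FPKM, -0.84 with equal sums, -0.90 with the median of ratios, and -1.07 to -0.98 with 1 library left out. With the filter of 5 FPKM, 22 genes were tested, 22 fell and 0 rose, since ATM was below it. The other repair genes past the threshold (43 lower, 4 higher) numbered 19 and 2 with treat and 77 and 9 with a fold of 1.5. The values that turned in sign were all from genes that did not pass the test: PALB2 (0.08 with equal sums, 0.02 with the median of ratios), ATR (0.02 with equal sums), FANCF (-0.07 without sh-NC replicate 1, 0.01 without sh-LDB1 replicate 1, and below the filter without either of the other libraries) and FANCC (-0.03 to 0.06 with 1 library left out, below 0 without sh-NC replicate 2 and without sh-LDB1 replicate 2). Equal sums moved the median of all tested genes from -0.08 to 0.07. The cause of the unequal sums, and the part that the unequal divisors had in them, was not tested. Over all genes, the counts past the fold threshold (1371 lower, 1264 higher) were 581 and 568 with treat, 3059 and 2469 with a fold of 1.5 and 992 and 710 with the filter of 5 FPKM. The GATA motif share of 3.23% was 0.0% in the window from 100 before to 50 after the start, where the E2F core share was 58.1% against 5.03% of all windows.

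With the replicate number as a block, 16 repair genes again passed the fold threshold downward, and 28 fell and 1 rose, with no call of the 33 changed. Same-numbered libraries did not deviate together (correlation 0.02). With 2 libraries per group this cannot show whether the numbers mark a pairing, which was not given in the sources used here. Depth limits FANCF and RAD54B, which had the lowest read numbers (29 reads for RAD54B in 1 library), while 31 of the 34 genes had at least 100 reads in every library.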

Other observations

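The pseudogenes of PMS2 did not move with it as a group. PMS2P1 was lower in both sh-LDB1 libraries, as PMS2 was, whereas PMS2P4 was listed at 1.75 and 1.22 FPKM in the controls and at 4.24 and 4.68 FPKM in sh-LDB1, and PMS2P3 at 7.62 and 7.11 FPKM in the controls and at 9.47 and 9.87 FPKM in sh-LDB1.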
